A study of Mus musculus with 40 samples.

Results

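The 6 genes described here encode secreted signals that draw or instruct inflammatory cells, and were measured by RNA-seq of the mouse aorta: the chemokines Ccl2, Ccl7, Cxcl1, and Cxcl12, and the cytokines Il6 and Lif, both of the IL-6 family. They were taken by gene symbol from the authors' tables of expression values, which list 17402 genes in a genotype experiment and 15399 genes in a cyclosporin A (CsA) experiment, and all 6 genes were found in both. The genotype experiment compared Cn-Ctl mice (labelled CnB1-flox, negative for Myh11-CreERT2) and SM-Cn-/- mice (CnB1-flox with Myh11-CreERT2, whose Cre is driven in smooth muscle cells and activated by tamoxifen), where CnB1 is the regulatory subunit of the phosphatase calcineurin (Cn). The methods also count Cre-carrying mice without the floxed allele as Cn-Ctl, but the labels of these libraries do not name any. All of these mice had received tamoxifen at 1 mg a day for 5 days when 10 to 12 weeks old, and 6 weeks later were left untreated or were infused with angiotensin II (Ang-II) at 1 µg/kg/min from a minipump for 2, 6, or 24 h. The CsA experiment compared WT C57BL/6J mice, 10 to 12 weeks old, with mice of that age that had carried a CsA minipump for 5 days, either untreated or given that dose of Ang-II for 2 or 24 h, and the WT mice had no pump during those 5 days. All mice were male, and each of the 40 libraries, in 14 groups, pools 3 aortas without perivascular tissue and adventitia. Groups hold 3 libraries except Cn-Ctl untreated and Cn-Ctl at 24 h, which hold 2. Per the methods, treated Cn-Ctl, WT, and CsA mice entered the study only with a systolic pressure above 130 mmHg. Treated SM-Cn-/- mice were taken without a pressure limit, as none had a raised pressure on Ang-II per the methods. Those in which CnB1 deletion could not be shown were removed. CsA mice were also removed if dephosphorylation of NFAT, a substrate of Cn, was not shown to be inhibited in the thymus. The selection thus differs between the genotypes and between WT and CsA. Among treated mice of the genotype experiment, genotype and blood pressure cannot be told apart.

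Chemokines are small secreted proteins that guide leukocytes through G-protein-coupled receptors. Ccl2 and Ccl7 (monocyte chemoattractant proteins) act on Ccr2 and bring monocytes to inflamed vessels, Cxcl1 draws neutrophils through Cxcr2, and Cxcl12 (stromal cell-derived factor) binds Cxcr4 and the scavenging receptor Ackr3. IL-6 and leukemia inhibitory factor (Lif) signal through a shared receptor subunit, gp130 (gene Il6st), paired with Il6ra or Lifr, and activate STAT3, which in turn induces its own inhibitor Socs3. Ang-II is a vasoconstrictor peptide known to raise inflammatory gene expression in the vessel wall, and CsA blocks the phosphatase activity of Cn, best known for activating NFAT transcription factors.

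In GRCm38, Ccl2 (ENSMUSG00000035385, 11:82035571 to 82037453), Ccl7 (ENSMUSG00000035373, 11:82045712 to 82047525), and Lif (ENSMUSG00000034394, 11:4257557 to 4272514) lie on chromosome 11. The 2 CC chemokine genes are neighbours, with 8258 bases between them. Il6 (ENSMUSG00000025746, 5:30013114 to 30019981) and Cxcl1 (ENSMUSG00000029380, 5:90891241 to 90893115) lie on chromosome 5 and Cxcl12 (ENSMUSG00000061353, 6:117168535 to 117181367) on chromosome 6. All 6 are protein-coding and on the plus strand.

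Promoter sequences from RefSeq (GRCm38.p6) matched 4 of the 6 genes, Cxcl1, Cxcl12, Il6, and Lif. The 250 bases before the start were searched on both strands for the NF-kB consensus, AP-1 (TGANTCA), CRE (TGACGTCA), C/EBP (TTGNGCAA), STAT (TTCNNNGAA), and the NFAT core (GGAAA), as sites of factors known for inflammatory genes. The NF-kB consensus was found before Cxcl1 (-71 to -61, overlapping matches on both strands), Il6 (-44 to -35), and Lif (-178 to -169), against 7.25% of all 32851 promoter windows. AP-1 was found before Il6 (-249 to -243) and Lif (-228 to -222), against 6.75% of windows, and C/EBP before Il6 alone (-128 to -121), against 2.61%. The NFAT core, present in 55.6% of windows, occurred 3 times before Cxcl1, 3 times before Il6, and once before Lif, and 1 match before Cxcl1 and 1 before Il6 lie inside the NF-kB match. None of the 4 windows held CRE (1.55% of windows) or STAT (7.02%), and the Cxcl12 window held no match at all. The sequences of the 3 genes with matches are given 5′ to 3′ on the plus strand, with the NF-kB, AP-1, and C/EBP matches in capitals.
Il6, chr5:30012864-30013113: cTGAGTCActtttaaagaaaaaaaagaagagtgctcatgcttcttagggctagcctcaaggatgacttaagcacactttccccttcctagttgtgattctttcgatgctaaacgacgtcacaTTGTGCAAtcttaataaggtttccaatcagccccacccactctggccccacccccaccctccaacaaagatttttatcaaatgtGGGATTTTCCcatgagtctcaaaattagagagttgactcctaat
Cxcl1, chr5:90890995-90891244: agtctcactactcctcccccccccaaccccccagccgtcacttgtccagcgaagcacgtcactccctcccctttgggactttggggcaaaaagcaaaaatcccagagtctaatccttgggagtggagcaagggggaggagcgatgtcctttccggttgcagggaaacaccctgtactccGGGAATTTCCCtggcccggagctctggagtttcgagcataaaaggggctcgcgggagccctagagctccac
Lif, chr11:4257318-4257567: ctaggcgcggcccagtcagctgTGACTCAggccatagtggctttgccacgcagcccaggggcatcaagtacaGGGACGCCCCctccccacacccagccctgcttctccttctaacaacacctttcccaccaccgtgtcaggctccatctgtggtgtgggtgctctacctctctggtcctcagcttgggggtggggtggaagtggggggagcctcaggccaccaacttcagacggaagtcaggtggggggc
A match describes these letters only and is not evidence of a bound factor.

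**Figure D1:**
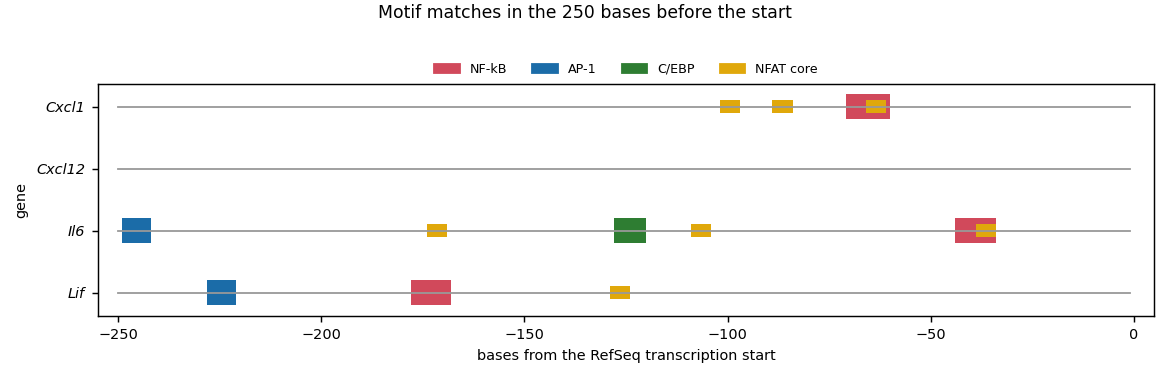
Motif matches (coloured boxes) along the 250 bases before the RefSeq start of the 4 genes with a promoter sequence; the horizontal axis gives bases from the start. The NF-kB match lies at -44 to -35 before Il6, at -71 to -61 before Cxcl1, and at -178 to -169 before Lif, and the Cxcl12 line carries no box.

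Expression is given as the authors' signal, a gene's reads with 0.5 added, over the scaled size of its library, on a scale where column totals run from 877583 to 1179360. Libraries held 2.73 M to 10.25 M assigned reads in the genotype experiment and 18.98 M to 38.9 M in the CsA experiment, so that a signal of 1 rests on few reads in the former. Differences are log2 differences of (signal + 0.5), with standard error (SE), from 1 limma fit per experiment over all protein-coding genes (14424 and 13738), and the adjusted p is Benjamini-Hochberg over those genes; a difference was called at an adjusted p under 0.05. Because of the added 0.5, these differences understate the change of genes with a low signal. The aortic samples were led by smooth muscle markers, whose 6 genes summed to a signal of 15723 to 48464 per library. Ppp3r1, the gene for CnB1, did not separate the genotypes, with a signal of 41.8 to 118 in SM-Cn-/- libraries and 45.7 to 134 in Cn-Ctl libraries. A value over the whole gene also counts transcripts that lack only the floxed part, and these samples hold other cells, so that it does not check the labels, and groups are those of the labels. The authors tested CnB1 recombination by PCR on a piece of the aortic tissue, per the methods. Rcan1, a known target of Cn, rose at 2 h in Cn-Ctl by a log2 difference of 3.42 (adjusted p = 1.9e-06, limma) and stood 3.13 log2 units lower in SM-Cn-/- at that time (log2 difference -3.13, adjusted p = 3.3e-06). In the CsA experiment the signal of Rcan1 was 30.7 to 45.2 untreated and 234 to 349 at 2 h in WT. With CsA it was 32.3 to 36.5 untreated and 101 to 163 at 2 h, so that it still rose, to a lower level. In bulk tissue, fewer cells of a type and less RNA per cell cannot be told apart.

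Across the genes, levels can be compared only per kilobase of merged exons. In untreated WT aorta Cxcl12 stood far above the rest, with a signal per kb of 13.4 ± 2.16 (SD, n = 3), followed by Ccl7 (0.531 ± 0.164), Ccl2 (0.421 ± 0.130), Cxcl1 (0.307 ± 0.170), Lif (0.129 ± 0.0595), and Il6 (0.0303 ± 0.0388). The libraries of Ccl7, Ccl2, and Cxcl1 overlapped, and so did those of Cxcl1 with Lif and of Lif with Il6. After 24 h of Ang-II the signal per kb in WT was 26.8 ± 10.1 for Cxcl12, 15.9 ± 6.47 for Ccl7, 8.42 ± 4.27 for Ccl2, 2.51 ± 1.03 for Cxcl1, 1.86 ± 1.02 for Il6, and 0.901 ± 0.331 for Lif. Neighbours in that order overlapped between libraries, except Ccl2 with Cxcl1. Il6 had moved from the last place to the fifth.

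In WT aorta all 6 genes rose by 24 h of Ang-II. Over all genes 35% were called in this comparison, and the median log2 difference was 2.61 over the 6 genes against 0.00 over all genes. All 6 were also called by edgeR and by DESeq2, and each of the 6 calls was kept when any 1 library was left out, with adjusted p of at most 0.015.

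The monocyte chemoattractants showed the 2 largest log2 differences on the scale with 0.5 added, whereas the ratio of mean signals at 24 h to untreated was 61.4 for Il6, 29.9 for Ccl7, and 20.02 for Ccl2. Ccl7 had a signal of 0.571, 0.318, and 0.385 in the untreated WT libraries, 0.898, 3.1, and 1.88 at 2 h, and 10.03, 18.7, and 9.45 at 24 h. Each set of libraries lay above the one before, and the log2 difference at 24 h was 3.78 ± 0.50 (SE, n = 3 and 3; adjusted p = 3.6e-05, limma). At 2 h it was 1.31 ± 0.50, which did not pass (adjusted p = 0.073) in the limma fit. It passed without WT 2 h replicate 1 (log2 difference 1.67, adjusted p = 0.049), with 0.1 added in place of 0.5 (adjusted p = 0.031), with only the compared groups fitted (adjusted p = 0.037), and in edgeR and DESeq2. Its neighbour Ccl2 had a signal of 0.611, 0.318, and 0.507 untreated, 0.385, 2.66, and 1.00 at 2 h, and 5.72, 15.05, and 7.99 at 24 h. The untreated and 2 h libraries overlapped, and those at 24 h lay above both. The log2 difference of Ccl2 was 3.27 ± 0.50 at 24 h (adjusted p = 0.00013, limma) and 0.73 ± 0.50 at 2 h (adjusted p = 0.34). In both genes the second 2 h library was the highest of its group, and that library also held a summed macrophage marker signal of 359.93 against 106 and 111 in the other 2.

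Of the CXC chemokines, Cxcl1 was the 1 gene of the 6 called at 2 h in WT, where 21.4% of all genes were called. Its signal was 0.532, 0.281, and 0.912 untreated, 1.46, 1.34, and 1.72 at 2 h, and 5.97, 5.65, and 2.47 at 24 h, without overlap between the 3 times. The log2 difference was 0.94 ± 0.32 at 2 h (adjusted p = 0.048, limma) and 2.23 ± 0.32 at 24 h (adjusted p = 7.9e-05). The 2 h call was lost in 5 of 6 fits that left out 1 library (all but WT untreated replicate 3), with adjusted p of 0.067 to 0.19, and also with 2 added in place of 0.5, with quantile scaling, and with only the compared groups fitted (adjusted p = 0.13, 0.097, and 0.053). Cxcl12, the most abundant of the 6, had a signal of 127, 109, and 91.5 untreated, 87.7, 108, and 102 at 2 h, and 183, 314, and 161 at 24 h. The first 2 times overlapped and the third lay above them, with a log2 difference at 24 h of 0.95 ± 0.21 (adjusted p = 0.0025, limma).

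The cytokine Il6 was close to undetected in untreated WT aorta, with 0, 0, and 4 reads (signal 0.0197, 0.0187, and 0.182). It reached 0.539, 0.685, and 0.540 at 2 h and 6.33, 5.55, and 1.69 at 24 h, again without overlap between times. Its log2 difference was 0.93 ± 0.48 at 2 h (adjusted p = 0.20, limma; DESeq2 gave 3.40 with an adjusted p of 0.030) and 2.98 ± 0.48 at 24 h (adjusted p = 0.00021), where the mean signal had gone from 0.0736 to 4.52. Lif had a signal of 0.729, 0.693, and 0.264 untreated, 0.744, 1.23, and 0.797 at 2 h, and 4.28, 5.14, and 2.33 at 24 h. Here too the 3 times did not overlap, though the 2 h values lay just above the untreated ones, with a log2 difference of 0.44 ± 0.34 at 2 h (adjusted p = 0.41, limma) and 2.03 ± 0.34 at 24 h (adjusted p = 0.00027). From 2 h to 24 h all 6 genes rose further in WT, by log2 differences of 1.08 (Cxcl12) to 2.54 (Ccl2), with adjusted p of 0.00095 to 0.0052, where 36.2% of all genes were called.

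**Figure D2:**
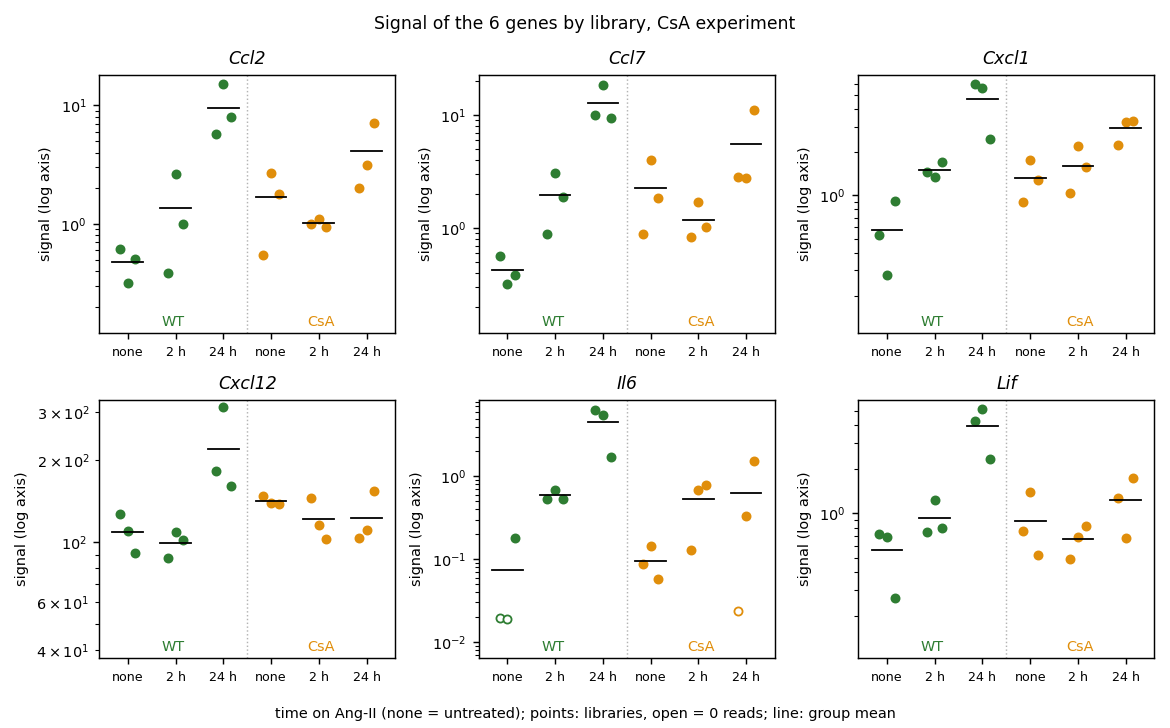
Signal (log axis) of each gene in every library of the CsA experiment, by time on Ang-II; green points are WT, orange points are CsA, open points have 0 reads, and the line is the group mean. The WT libraries at 24 h lie above every untreated and 2 h WT library in all 6 panels, and in the Il6, Lif, and Cxcl12 panels they also lie above all CsA libraries at 24 h.

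In CsA-pretreated aorta none of the 6 genes was called against untreated CsA mice, at 2 h (20.1% of all genes called, limma) or at 24 h (8.98%). At an unadjusted p under 0.05, none passed at 2 h and Cxcl1 and Ccl2 passed at 24 h; edgeR called none at either time, and DESeq2 called none at 2 h and Cxcl1 at 24 h. Ccl7 had a signal of 0.897, 4.01, and 1.87 in untreated CsA libraries, 0.843, 1.71, and 1.02 at 2 h, and 2.84, 2.80, and 11.04 at 24 h. Ccl2 had a signal of 0.545, 2.71, and 1.79 untreated, 0.996, 1.09, and 0.943 at 2 h, and 2.03, 3.16, and 7.15 at 24 h. In both genes the untreated CsA libraries spread widely and the third library at 24 h was the highest. The log2 differences at 24 h were 1.03 ± 0.50 for Ccl7 (95% interval -0.02 to 2.09; adjusted p = 0.20, limma) and 1.07 ± 0.50 for Ccl2 (0.01 to 2.13; adjusted p = 0.19).

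Cxcl1 had a signal of 0.897, 1.77, and 1.29 in untreated CsA libraries, 1.05, 2.20, and 1.59 at 2 h, and 2.26, 3.26, and 3.29 at 24 h. Its libraries at 24 h lay above both other sets, with a log2 difference of 0.93 ± 0.32 (0.25 to 1.61; adjusted p = 0.082, limma; 0.032 with quantile scaling). Cxcl12 stayed at 148, 139, and 138 untreated, 146, 116, and 103 at 2 h, and 103.50, 110.4, and 154 at 24 h, with a log2 difference at 24 h of -0.23 ± 0.21 (-0.68 to 0.22; adjusted p = 0.51). Il6 had a signal of 0.0879, 0.143, and 0.0578 untreated, 0.128, 0.690, and 0.783 at 2 h, and 0.0238 (0 reads), 0.328, and 1.55 at 24 h. The Il6 libraries at 24 h thus ran from undetected to the highest of the CsA arm, with a log2 difference of 0.69 ± 0.48 (-0.33 to 1.72; adjusted p = 0.38, limma). Lif had a signal of 0.756, 1.41, and 0.520 untreated, 0.485, 0.690, and 0.823 at 2 h, and 1.26, 0.682, and 1.75 at 24 h, with a log2 difference at 24 h of 0.31 ± 0.34 (-0.40 to 1.03; adjusted p = 0.59). From 2 h to 24 h, where 18% of all genes were called, Ccl7 rose in the CsA arm (log2 difference 1.60 ± 0.50, adjusted p = 0.036, limma), while Ccl2 did not pass (1.45 ± 0.50, adjusted p = 0.055). Ccl2 did pass under some alternatives, among them without CsA replicate 1 at 24 h (1.81, adjusted p = 0.040), edgeR, and DESeq2. The Ccl7 call was lost without CsA replicate 1 or 3 at 2 h or CsA replicate 3 at 24 h (adjusted p = 0.089, 0.082, and 0.16) and with only the compared groups fitted (0.11).

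Set against WT at the same time, CsA-pretreated aorta already held more Ccl7 before Ang-II (log2 difference 1.42 ± 0.50, adjusted p = 0.047, limma), where 25.2% of all genes were called. This call was lost in 5 of 6 fits that left out 1 library (all but CsA untreated replicate 1; adjusted p of 0.070 to 0.18), and with 2 added or with quantile scaling (0.14 and 0.16). Ccl2 (log2 difference 1.02 ± 0.50, adjusted p = 0.14), Cxcl1 (0.77 ± 0.32, adjusted p = 0.090), and Cxcl12 (0.39 ± 0.21, adjusted p = 0.19) did not pass. DESeq2 called Ccl2 (1.83, adjusted p = 0.027) and Cxcl1 (1.20, adjusted p = 0.042), and Cxcl12 passed with only the compared groups fitted (adjusted p = 0.036). At 2 h no gene of the 6 was called by limma, edgeR, or DESeq2 or passed an unadjusted p under 0.05 in limma, where 1.33% of all genes were called, and DESeq2 gave no adjusted p for 1 of them.

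At 24 h of Ang-II 3 of the 6 genes were lower in CsA than in WT, against 5.58% of all genes called in either direction. These were Il6 (log2 difference -2.22 ± 0.48, adjusted p = 0.017), Lif (-1.34 ± 0.34, adjusted p = 0.031), and Cxcl12 (-0.80 ± 0.21, adjusted p = 0.040), all by limma, and in each the WT and CsA libraries did not overlap. Ccl7 (-1.33 ± 0.50, 95% interval -2.38 to -0.27, adjusted p = 0.12), Ccl2 (-1.18 ± 0.50, -2.24 to -0.12, adjusted p = 0.17), and Cxcl1 (-0.53 ± 0.32, -1.21 to 0.15, adjusted p = 0.33) did not pass. With only the compared groups fitted, none of the 3 passed (adjusted p = 0.13, 0.12, and 0.16), and Lif was lost with 0.1 added (0.055) and Cxcl12 with quantile scaling (0.051). edgeR called only Cxcl12 here, with adjusted p of 0.10 for Il6 and 0.0595 for Lif. The Ccl7 difference passed without CsA replicate 3 at 24 h (-1.93, adjusted p = 0.030). Each of the 3 calls was lost without WT replicate 1, WT replicate 2, CsA replicate 1, or CsA replicate 2 at 24 h, with adjusted p of 0.056 to 0.11 for Il6, 0.060 to 0.18 for Lif, and 0.058 to 0.20 for Cxcl12.

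The test of the response itself, the change at 24 h in CsA minus that in WT, was negative in all 6 genes and passed in 4, where 9.42% of all genes were called. The difference was -2.75 ± 0.70 for Ccl7 (adjusted p = 0.025, limma), -1.18 ± 0.30 for Cxcl12 (adjusted p = 0.023), -1.72 ± 0.48 for Lif (adjusted p = 0.035), and -2.29 ± 0.68 for Il6 (adjusted p = 0.047). Ccl2 (-2.20 ± 0.71, adjusted p = 0.061) and Cxcl1 (-1.30 ± 0.46, adjusted p = 0.081) did not pass. They passed without certain libraries, Ccl2 without CsA untreated replicate 1, WT 24 h replicate 1, or CsA 24 h replicate 3 (adjusted p = 0.033, 0.049, and 0.017) and Cxcl1 without WT 24 h replicate 3 (adjusted p = 0.024). edgeR called Ccl7 and Cxcl12 only, with adjusted p of 0.051 for Lif and 0.28 for Il6. DESeq2 called every gene but Il6 (adjusted p = 0.17), with 0.011 for Ccl2 and 0.028 for Cxcl1. With only the compared groups fitted or with 0.1 added, Il6 was lost (adjusted p = 0.061 and 0.072), and with quantile scaling Il6 and Lif (0.054 and 0.10). The median over the 6 genes was -1.96 log2 units, against -0.02 over all genes. In fits that left out 1 of the 12 libraries, the call was lost 4 times for Cxcl12, 6 times for Ccl7, 8 times for Lif, and 10 times for Il6, with adjusted p of up to 0.067, 0.076, 0.10, and 0.13. The libraries were WT untreated replicates 2 and 3 and CsA 24 h replicates 1 and 2 for Cxcl12, those 4 with CsA untreated replicate 2 and WT 24 h replicate 2 for Ccl7, and those 6 with CsA untreated replicate 1 and WT 24 h replicate 1 for Lif, whereas Il6 kept its call only without WT or CsA 24 h replicate 3. Each response also contains the untreated level, which was higher in CsA than in WT for all 6 genes, though limma called Ccl7 alone. At 2 h none of the 6 responses was called (0.146% of all genes called, limma), with Ccl7 at -1.89 ± 0.70 (adjusted p = 0.27); it was the 1 gene of the 6 with an unadjusted p under 0.05, edgeR called none, and DESeq2 called Ccl7.

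**Figure D3:**
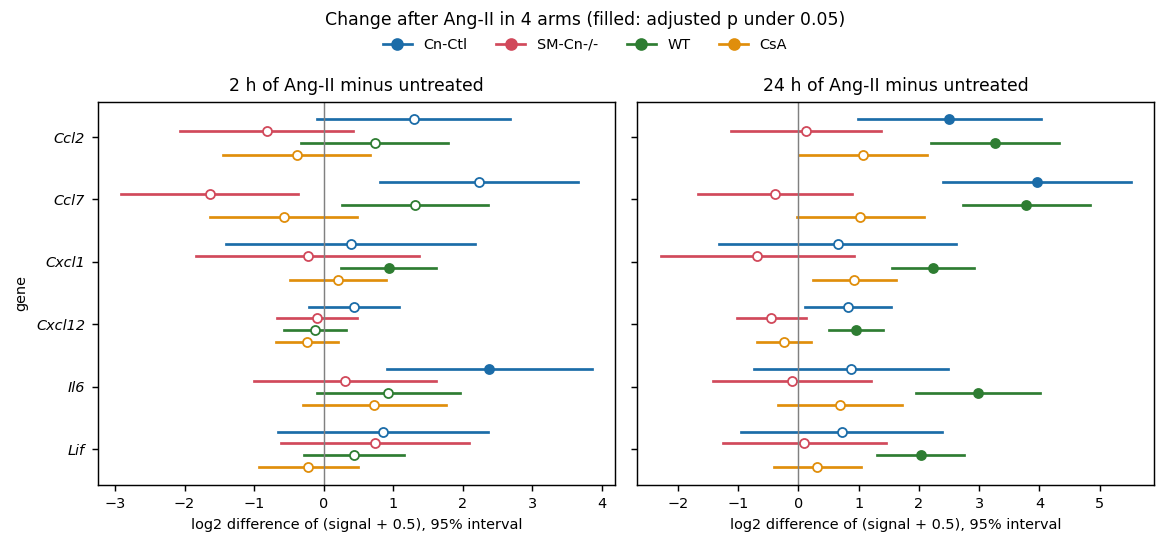
Log2 difference of (signal + 0.5) between Ang-II and untreated libraries at 2 h (left) and 24 h (right), with 95% intervals, for the 6 genes in 4 arms; filled points have an adjusted p under 0.05. At 24 h all 6 WT points are filled, Ccl2 and Ccl7 are filled in Cn-Ctl, and no point is filled in SM-Cn-/- or CsA.

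The shallower genotype experiment showed calls in fewer of these genes. In Cn-Ctl aorta Il6 was called at 2 h, where 6.23% of all genes were called. It had 0 reads in both untreated libraries and 2, 32, and 29 reads at 2 h (signal 0.499, 5.12, and 4.52), at least 14.5-fold above the level of 3 reads over the untreated group. The log2 difference was 2.39 ± 0.71 (SE, n = 3 and 2; adjusted p = 0.0465, limma). The call was lost without Cn-Ctl 2 h replicate 2 or 3 or either untreated library (adjusted p of 0.15 to 0.24), and was not made by edgeR (adjusted p = 0.13), with 0.1 added (0.055), or with only the compared groups fitted (0.11). At 6 h Il6 had a signal of 1.77, 1.01, and 0.157 (9, 6, and 0 reads), with a log2 difference of 1.17 ± 0.71 (adjusted p = 0.435). At 24 h it had 1.32 and 0.129 (9 and 0 reads), with 0.88 ± 0.78 (adjusted p = 0.57). At both times the libraries ran down to 0 reads.

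At 24 h it was the CC chemokines that rose in Cn-Ctl aorta, where 5.62% of all genes were called. Ccl7 had 0 and 1 reads in the untreated libraries (signal 0.0728 and 0.274), a signal of 0.499, 6.54, and 3.90 at 2 h, of 1.77, 1.33, and 3.29 at 6 h, and of 6.73 and 14.4 at 24 h. Every treated library lay above both untreated ones. The log2 difference was 3.96 ± 0.75 at 24 h (adjusted p = 0.00285, limma), and in reads the ratio was 115 with a 95% counting interval of 20.2 to 4581 that rests on the 1 untreated read. Without Cn-Ctl 24 h replicate 3 the call was lost (log2 difference 3.44, adjusted p = 0.067). At 2 h (2.24 ± 0.68, adjusted p = 0.054) and 6 h (1.91 ± 0.68, adjusted p = 0.13) Ccl7 did not pass, though it passed at 2 h without Cn-Ctl replicate 1 (3.06, adjusted p = 0.0046), with 0.1 added (adjusted p = 0.042), in edgeR (0.041), and in DESeq2 (0.016). Ccl2 had a signal of 0.510 and 1.19 untreated, 1.50, 2.29, and 5.44 at 2 h, 1.02, 1.80, and 0.784 at 6 h, and 4.51 and 10.48 at 24 h. It was highest at 24 h, with a log2 difference of 2.51 ± 0.73 (adjusted p = 0.047, limma), which was lost without Cn-Ctl 24 h replicate 3 or either untreated library (adjusted p of 0.12 to 0.36), in edgeR (adjusted p = 0.15), with 0.1 added (0.10), and with only the compared groups fitted (0.13). At 2 h the log2 difference of Ccl2 was 1.30 ± 0.67 (adjusted p = 0.31).

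Cxcl1, Cxcl12, and Lif were not called at any time in Cn-Ctl. Cxcl1 had a signal of 0.801 and 2.65 untreated, 0.299, 4.02, and 4.67 at 2 h, 2.89, 3.98, and 6.74 at 6 h, and 1.87 and 3.75 at 24 h. Cxcl12 had 138 and 95.7 untreated, 104, 122, and 298 at 2 h, 121, 89.5, and 74.4 at 6 h, and 168 and 247 at 24 h. Its 24 h libraries lay above the untreated ones, with a log2 difference of 0.83 ± 0.34 (adjusted p = 0.17, limma). Lif had 0.655 and 0.0913 untreated, 0.0997, 1.34, and 2.53 at 2 h, 1.02, 1.01, and 2.98 at 6 h, and 2.43 and 0.129 at 24 h, so that its untreated and treated libraries overlapped at 2 h and 24 h. The first 2 h library was the lowest of its group in all 6 genes. At 6 h none of the 6 genes was called by limma, edgeR, or DESeq2 (which gave no adjusted p for 2), with Ccl7 alone under an unadjusted p of 0.05 in limma, and 3.97% of all genes were called.

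In SM-Cn-/- aorta no gene of the 6 was called higher after Ang-II at any time. Calls over all genes amounted to 1.13% at 2 h, 2.34% at 6 h, and 0.79% at 24 h. Ccl7 had a signal of 2.17, 1.40, and 3.03 in the untreated libraries, 0.652, 0.0675, and 0.404 at 2 h, 1.06, 1.36, and 0.173 at 6 h, and 1.63, 2.24, and 0.874 at 24 h. Its untreated libraries lay above those at 2 h and 6 h, with a log2 difference at 2 h of -1.64 ± 0.61 that did not pass (adjusted p = 0.24, limma). Ccl2 had 2.76, 0.638, and 0.786 untreated, 0.507, 0.203, and 0.727 at 2 h, 1.56, 0.0717 (0 reads), and 2.26 at 6 h, and 1.99, 0.849, and 1.33 at 24 h. Il6 had 0 reads in all 3 untreated libraries and in all 3 libraries at 24 h, 2, 2, and 0 reads at 2 h, and 8, 0, and 0 at 6 h, so that at most 2 libraries of a group held it. Lif had 0 reads in the 3 untreated libraries, and its highest signal was 0.889 at 2 h, 1.06 at 6 h, and 0.232 at 24 h. Over the group it had 10 reads at 2 h, 8 at 6 h, and 2 at 24 h. At such counts a missing call does not show that Il6 and Lif stayed unchanged. Cxcl1 had 3.51, 4.72, and 0.786 untreated, 1.67, 2.77, and 1.86 at 2 h, 0.939, 0.502, and 10.6 at 6 h, and 1.27, 1.31, and 1.52 at 24 h.

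The 1 call in SM-Cn-/- aorta was of Cxcl12, lower at 6 h than untreated. Its signal was 326, 233, and 242 untreated, 270.5, 251, and 223 at 2 h, 131, 139, and 111 at 6 h, and 184, 218, and 181 at 24 h. The 6 h libraries lay below all others of the genotype, and the log2 difference from untreated was -1.06 ± 0.28 (adjusted p = 0.045, limma). The call was lost without any 1 of the 6 libraries (adjusted p of 0.058 to 0.17) and in edgeR (adjusted p = 0.060). At an unadjusted p under 0.05, Ccl7 was lower at 2 h and Cxcl12 at 6 h, and no other pair of gene and time passed. edgeR called none of the 18 pairs, and DESeq2, which gave no adjusted p for 8 of them, called Cxcl12 at 6 h. In Cn-Ctl the mean signal of Cxcl12 was also lowest at 6 h (94.9, against 117 untreated), without a call against untreated.

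**Figure D4:**
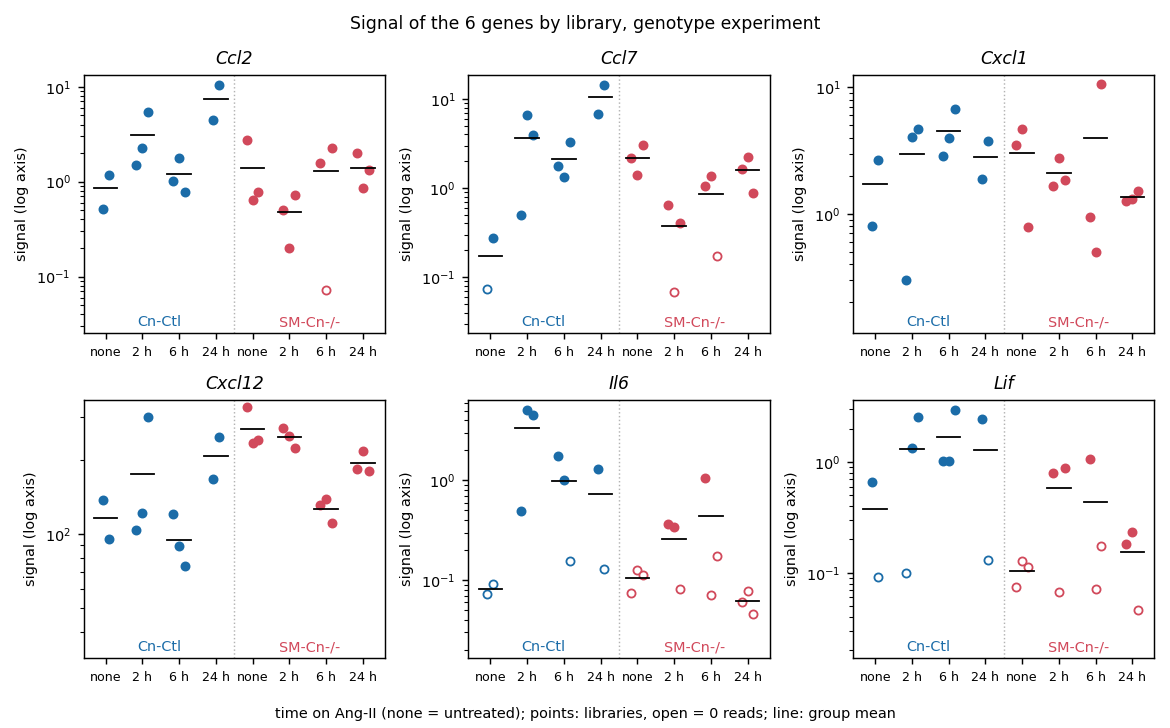
Signal (log axis) of each gene in every library of the genotype experiment, by time on Ang-II; blue points are Cn-Ctl, red points are SM-Cn-/-, open points have 0 reads, and the line is the group mean. Ccl7 lies between 0.0728 and 0.274 in untreated Cn-Ctl and between 6.73 and 14.4 at 24 h, against 0.874 to 2.24 at 24 h in SM-Cn-/-, and Il6 is at 0 reads in all SM-Cn-/- libraries at 24 h.

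Set against each other at the same time, the genotypes differed by the test in 1 gene of the 6 and at 1 time. Ccl7 at 24 h was lower in SM-Cn-/- than in Cn-Ctl (log2 difference -2.37 ± 0.68, adjusted p = 0.0465, limma), where 4.94% of all genes were called, and the libraries did not overlap. The call was lost without any 1 of the 3 SM-Cn-/- libraries or Cn-Ctl replicate 3 (adjusted p of 0.072 to 0.44), in edgeR (adjusted p = 0.135), with 0.1 added (0.13), and with only the compared groups fitted (0.060). Ccl2 at 24 h had a log2 difference of -2.02 ± 0.67 (adjusted p = 0.094), which passed with 2 added (adjusted p = 0.028). At 2 h, where 3.7% of all genes were called, the log2 differences were -2.02 ± 0.63 for Il6 (adjusted p = 0.085), -1.90 ± 0.61 for Ccl7 (adjusted p = 0.098), -1.75 ± 0.60 for Ccl2 (adjusted p = 0.13), and 0.66 ± 0.28 for Cxcl12 (adjusted p = 0.26). These 4 genes had an unadjusted p under 0.05 and none passed in limma or edgeR, while DESeq2 gave an adjusted p for 1 of the 6 genes and did not call it. The Il6 and Ccl7 differences passed without Cn-Ctl 2 h replicate 1 (adjusted p = 0.014 and 0.011), and that of Cxcl12 without Cn-Ctl 2 h replicate 3 (adjusted p = 0.0043). At 6 h none was called by limma (1.98% of all genes), edgeR, or DESeq2, and none had an unadjusted p under 0.05.

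Before Ang-II no difference between the genotypes passed in limma for the 6 genes. Ccl7 had a mean signal of 2.20 in SM-Cn-/- against 0.173 in Cn-Ctl, and Cxcl12 of 267 against 117. The log2 differences were 1.97 ± 0.68 for Ccl7 (adjusted p = 0.73, limma) and 1.20 ± 0.31 for Cxcl12 (adjusted p = 0.42), in a comparison in which 0.0139% of all genes were called. Both had an unadjusted p under 0.05, edgeR called neither, and DESeq2 called Cxcl12, the only gene of the 6 for which it gave an adjusted p.

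The response at 24 h, SM-Cn-/- minus Cn-Ctl, passed for Ccl7 (-4.35 ± 0.97, adjusted p = 0.043, limma), where 0.513% of all genes were called. Part of this value is the higher untreated level in SM-Cn-/-, and the untreated Cn-Ctl group holds 1 read of Ccl7 in 2 libraries. The call was lost without any 1 of the 10 libraries except Cn-Ctl 24 h replicate 2 (adjusted p of 0.052 to 0.29), in edgeR (adjusted p = 0.076), and with 0.1 added (0.056). Ccl2 (-2.38 ± 0.95, adjusted p = 0.325) and Cxcl12 (-1.27 ± 0.44, adjusted p = 0.23) did not pass. The response at 2 h was -3.88 ± 0.92 for Ccl7 (adjusted p = 0.062, 0.0072 without Cn-Ctl 2 h replicate 1, and 0.043 with 0.1 added), -2.08 ± 0.95 for Il6 (adjusted p = 0.59), and -2.12 ± 0.90 for Ccl2 (adjusted p = 0.53). No response of the 6 was called at 2 h (0.513% of all genes) or 6 h (0.0624%) by limma or edgeR, with an unadjusted p under 0.05 for 3 genes at 2 h and for Ccl7 at 6 h. DESeq2 gave an adjusted p for 1 of the 6 genes at each time and called none. Responses at different times share the untreated libraries and are not independent of each other. No change between Ang-II times was called within either genotype by limma or edgeR, against 1.67% (6 h) and 7.37% (24 h) of all genes in Cn-Ctl and 1.41% and 3.65% in SM-Cn-/-, each relative to 2 h, while 4 such changes had an unadjusted p under 0.05 and DESeq2 called Cxcl12 at 6 h in both genotypes.

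Markers of other cell types moved together with several of these values. All 10 macrophage markers were called higher at 24 h in WT, where 35% of all genes were called. Their summed signal was 113 to 167 in untreated WT, 106 to 359.93 at 2 h, and 311 to 481 at 24 h. The response of 8 of the 10 at 24 h was lower in CsA than in WT, against 9.42% of all genes called. All 10 were also higher in untreated CsA than in untreated WT, against 25.2% of all genes called. In CsA the sum was 312 to 372 untreated, 172 to 194 at 2 h, and 267 to 438 at 24 h. The third CsA library at 24 h, highest of its group in all 6 genes, also had the highest macrophage sum of its group (438 against 296 and 267) and the highest neutrophil sum (87.8 against 4.91 and 27.6, over the 4 of 5 markers listed). Neutrophil marker sums were 0.446 to 1.16 in untreated WT, 4.21 to 10.6 in WT at 24 h, and 9.85 to 26.2 in untreated CsA. At 24 h, fibroblast markers summed to 3322 to 3790 in WT and 2357 to 2761 in CsA, and adipocyte markers to 786 to 852 in WT and 1202 to 3814 in CsA. In untreated mice the adipocyte sum was 353 to 667 in WT and 2333 to 4177 in CsA, and the fibroblast sum was 2120 to 3039 in WT and 2042 to 2237 in CsA. Smooth muscle markers were all 6 lower and endothelial markers all 6 higher in untreated CsA than in untreated WT (25.2% of all genes called).

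In the genotype experiment, the macrophage sum was 94.7 to 131 in untreated Cn-Ctl and 146 to 407 in treated Cn-Ctl. In SM-Cn-/- it was 186 to 306 untreated and 202 to 348 treated. At 24 h the genotypes overlapped, with 244 to 356 in Cn-Ctl and 202 to 331 in SM-Cn-/-. C1qa and C1qb were higher at 6 h (3.97% of all genes called) and 24 h (5.62%) in Cn-Ctl than untreated. Fibroblast markers summed to 1243 to 2118 in untreated Cn-Ctl and 1975 to 4167 in treated Cn-Ctl, and the third Cn-Ctl library at 2 h, highest in Cxcl12, Ccl2, Cxcl1, and Lif of its group, also held the highest fibroblast and macrophage sums of that group (4167 and 385). Smooth muscle markers summed to 27772 to 28221 in untreated Cn-Ctl against 20219 to 23659 in untreated SM-Cn-/-, to 31273 to 32986 against 22389 to 28020 at 6 h, and to 26824 to 48464 against 23730 to 26421 at 24 h, without overlap, while at 2 h the libraries overlapped. Cnn1 was called lower in SM-Cn-/- at 2 h (3.7% of all genes called) and 24 h (4.94%) and Myocd at 2 h. Endothelial markers summed to 299.5 to 607 in Cn-Ctl and 566 to 1319 in SM-Cn-/-. Of these, 3 of 6 (Pecam1, Tek, and Tie1) were higher in SM-Cn-/- at 24 h (4.94% of all genes called). Lymphocyte markers stayed at a sum of 21.9 or less in the genotype experiment (5 of 6 listed). In the CsA experiment they stayed at 1.63 or less (1 of 6 listed). Red blood cell markers summed to 31.0 to 2484. Of these, 1 of 5 (Hba-a2) was higher at 24 h than at 2 h in SM-Cn-/- (3.65% of all genes called), with no other call. The part of these cell types in the values of the 6 genes was not tested.

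**Figure D5:**
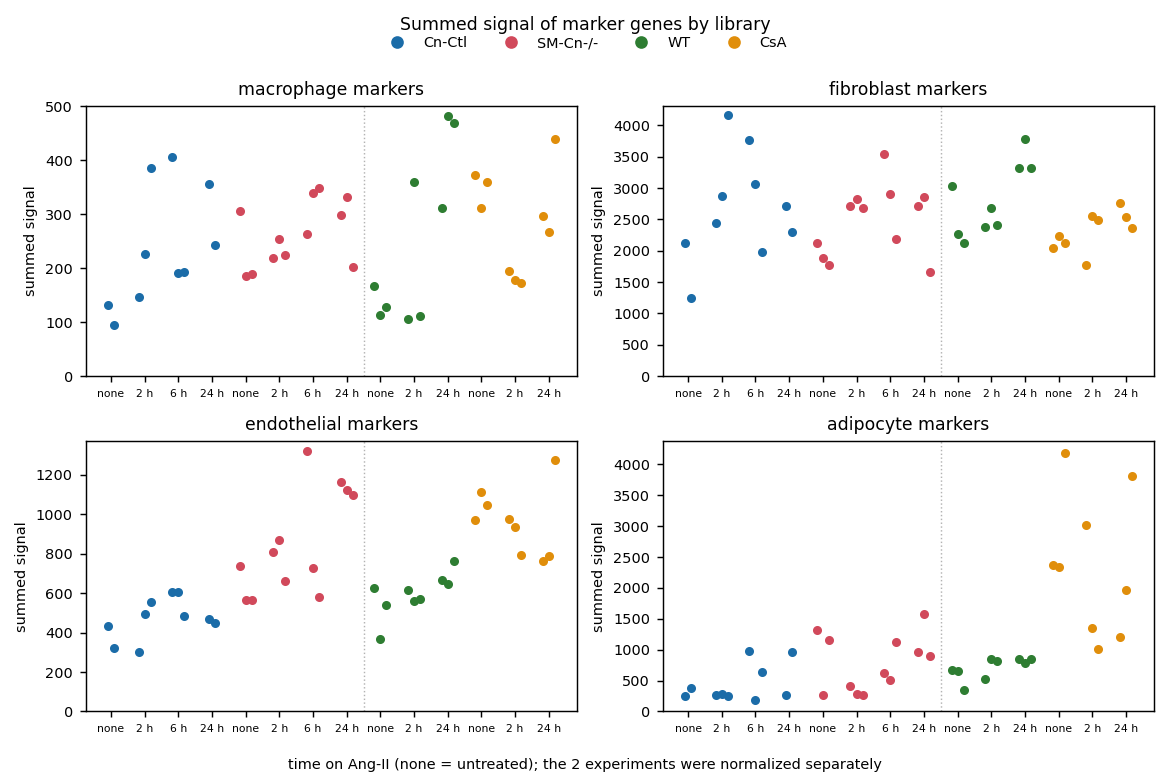
Summed signal of marker genes for macrophages, fibroblasts, endothelium, and adipocytes in every library, by group and time on Ang-II, with axes from 0; the dotted line separates the 2 experiments. The macrophage sum is 311 to 481 in WT at 24 h against 113 to 167 untreated, and 312 to 372 in untreated CsA.

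The genes whose pattern was most like that of each of the 6 were found by Pearson r of log2 (signal + 0.5), taking the lower of the values over the 22 and the 18 libraries. These r are descriptions over libraries that share groups and depth. Ccl2 and Ccl7 were both followed closely by Ptx3, a secreted pattern recognition protein (r = 0.76 and 0.94 with Ccl2, and 0.77 and 0.95 with Ccl7), and Ccl2 and Ccl7 followed each other less closely in the genotype experiment (r = 0.65) than in the CsA experiment (0.98). Il6 had Capza1 (r = 0.79 and 0.79), Has1, a hyaluronan synthase (0.78 and 0.89), and Bzw1 (0.77 and 0.77) as its nearest genes. Cxcl12 had Ctss, a cathepsin of antigen-presenting cells (0.74 and 0.73), Pdia4 (0.70 and 0.78), and the macrophage marker Adgre1 (0.69 and 0.74). For Cxcl1 the likeness was weaker, with Hmga2 first (0.62 and 0.74), then Clec4n and Dph5, and Lif had Mcu, the mitochondrial calcium uniporter (0.75 and 0.82), then Rab11fip5 and Pitpna. H13 and Ajuba were the other genes nearest to Ccl2, and Nme1 and Fgd3 those nearest to Ccl7.

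Among the other chemokines, Ccl6 and Ccl9, CC chemokines made by myeloid cells, were the 2 that rose among 11 CC genes (12 entries, since Ccl21a is listed 2 times) in Cn-Ctl at 2 h and again at 24 h (6.23% and 5.62% of all genes called). Ccl6 had log2 differences of 1.86 (adjusted p = 0.00037, limma) and 3.18 (adjusted p = 1.1e-05), and Ccl9 of 1.58 (adjusted p = 0.018) and 2.49 (adjusted p = 0.00165). In SM-Cn-/-, Ccl6 rose at 6 h (2.03, adjusted p = 0.00023) and 24 h (1.84, adjusted p = 0.0026), and its signal was 9.32 to 14.9 untreated and 31.8 to 50.3 at 24 h. In WT at 24 h, where 35% of all genes were called, 5 of 10 other CC chemokines rose and 1, Ccl27a, fell (log2 difference -0.86, adjusted p = 0.0018), with 4.01 for Ccl6 (adjusted p = 8.3e-07) and 3.41 for Ccl9 (adjusted p = 8.5e-07). At that time 6 of 9 other CXC, CX3C, and XC chemokines rose and none fell. In CsA at 24 h, where 8.98% of all genes were called, Ccl21a of the 10 and Cxcl9 of the 9 were called, and both fell. In untreated CsA against untreated WT, 5 of 10 and 4 of 9 were higher, against 25.2% of all genes called. The 24 h response of Ccl6 (-3.20, adjusted p = 0.0034) and of Ccl9 (-2.50, adjusted p = 0.0037) was lower in CsA than in WT, from untreated levels that were higher in CsA by 2.47 and 1.80 log2 units.

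Of the chemokine receptors, Ackr3, the other receptor of Cxcl12, rose in WT at 2 h (log2 difference 0.57, adjusted p = 0.014, limma) and 24 h (1.01, adjusted p = 0.00014), and 7 of 11 receptors rose and 1 fell in WT at 24 h, against 35% of all genes called. Ccr2, the receptor of Ccl2 and Ccl7, had a signal of 1.44 to 4.12 in untreated WT and 12.3 to 37.9 at 24 h. In untreated CsA, 5 of the 11 were higher than in untreated WT (25.2% of all genes called), and 5 of 11 had a lower 24 h response in CsA (9.42%).

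Receptor and signalling genes of the IL-6 family were called as early as 2 h. Il6ra, the IL-6 receptor, rose at 2 h in Cn-Ctl (log2 difference 1.63, adjusted p = 0.0025, limma) and WT (1.28, adjusted p = 9.1e-05), and Osmr, the receptor of oncostatin M, rose at 2 h in both (1.34, adjusted p = 0.000565, and 0.83, adjusted p = 0.0025). Il11ra1 fell in WT at 2 h (-0.32, adjusted p = 0.034). Of the 7 receptors, 2 rose at 2 h in Cn-Ctl, where 6.23% of all genes were called, and 2 rose and 1 fell in WT, where 21.4% were called. In SM-Cn-/-, Osmr was called higher at 24 h (log2 difference 1.00, adjusted p = 0.021, limma). Its signal there was 28.4 to 33.8 untreated, 46.1 to 58.7 at 2 h, 40.8 to 69.6 at 6 h, and 46.2 to 77.9 at 24 h, so that it was already higher at 2 h.

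Of 8 signalling genes, 2 rose at 2 h in Cn-Ctl (6.23% of all genes called), and 4 rose and 1 fell in WT (21.4%). Socs3, the feedback inhibitor of IL-6 family signals, and Stat3 rose at 2 h in Cn-Ctl and in WT. Socs3 had a signal of 3.56 to 4.73 in untreated Cn-Ctl and 22.9 to 72.3 at 2 h, and of 5.86 to 9.75 in untreated WT and 40.9 to 67.1 at 2 h. The log2 difference was 2.94 in Cn-Ctl (adjusted p = 0.00013, limma) and 2.75 in WT (adjusted p = 2.9e-05). Stat3 rose by 1.16 (adjusted p = 0.00023) and 0.85 (adjusted p = 7.2e-05). Its signal in SM-Cn-/- was 91.0 to 105 untreated and 129 to 136 at 2 h, against 97.6 to 97.9 and 201 to 247 in Cn-Ctl. In SM-Cn-/- Socs3 had a log2 difference at 2 h of -0.42 (adjusted p = 0.67), and its response at 2 h was lower than in Cn-Ctl (-3.36, adjusted p = 0.0076). The response of Socs3 at 24 h was lower in CsA than in WT (-1.92, adjusted p = 0.020). Part of each value is the untreated level. It was higher by 0.66 log2 units in SM-Cn-/- (adjusted p = 0.98, limma) and by 0.89 in CsA (adjusted p = 0.062). In CsA the Socs3 signal was at most 15.4 untreated and 17.2 to 30.3 at 2 h. That log2 difference of 0.76 did not pass (adjusted p = 0.12, limma). Tyk2, a kinase of the same receptors, fell at 2 h in WT (-0.94, adjusted p = 1.2e-05).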

How the data were processed

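RNA-seq libraries (oligo-dT, Genome Analyzer IIx) of 3 pooled aortas each were grouped by genotype or pretreatment and hours of Ang-II, as the labels and methods give them; the authors discarded 1 untreated Cn-Ctl replicate. The authors mapped reads with Bowtie 0.12.7 and estimated expression with RSEM 1.16, per the labels, and deposited normalized signal: reads plus 0.5 over a scaled library size, a reading taken from the values, since the scaling method is not given in the sources used here. All values (100%) convert to whole reads within 0.01. Median depth was 6.52 M and 22.8 M assigned reads.

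Protein-coding genes (GENCODE vM21 biotypes) with a signal of at least 1 in at least 2 libraries were kept, which removed 3 genes of the CsA experiment. Log2 (signal + 0.5) was fitted with limma 3.58.1 in R 4.3.3 (group means, intensity trend). Alternatives used edgeR 4.0.16 (quasi-likelihood) and DESeq2 1.42.0 on recovered reads, other pseudocounts, filters, and scalings, fewer groups, a replicate block, and leaving out libraries. The fit was also run on simulated reads, with changes planted only in genes above a minimum of expected reads. It therefore does not show how changes are recovered in genes with few reads, such as Il6 in the genotype experiment. The counting interval is exact binomial at 95% and covers counting error only, and floors use 3 reads over a group. The labels name no separate batches.

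The 6 genes and all gene lists were chosen with earlier results of these data known. Named were the 6 genes, Ppp3r1, Rcan1, the 3 genes most like each of the 6, and up to 3 genes a list with the largest absolute log2 difference among those called at 2 h in Cn-Ctl, and likewise in WT. Other genes named with the lists and markers (such as Ccr2, Cxcl9, and Pecam1) were chosen after their values were seen. The list of other IL-6 family ligands is not reported here. Library pairs of a group differed by a chi-square per degree of freedom of at least 6.17, so none was counted as a duplicate. Where nothing tells whether replicate pools are separate cohorts, p-values measure only the spread between these libraries.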

Additional observations from a re-analysis of the deposited data

Results flagged for a closer look

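The change after 24 h of Ang-II differed by its own test between the arms of an experiment for 5 pairs of gene and comparison. In SM-Cn-/- minus Cn-Ctl the difference was -4.35 log2 units for Ccl7. In CsA minus WT it was -2.75 for Ccl7, -2.29 for Il6, -1.72 for Lif, and -1.18 for Cxcl12. The direction was the same in every fit that left out 1 library, and the call was lost in some of those fits for each of the 5. Groups of 2 or 3 libraries are too small to test 1 library against the rest of its group.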

How the results depend on the processing

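Of 168 pairs of gene and comparison, 28 were called, and 12 of these kept the call in every fit that left out 1 library. For single genes, 220 of 257 values of called pairs under the other alternatives kept direction and side of the threshold, and 37 missed it; of 384 values of uncalled pairs whose difference is printed, 23 passed; none turned direction. The number of calls over the 6 genes and all times of a comparison follows where it changed most, and some smaller changes in both directions are left out. With a mean signal of at least 5, which keeps only Cxcl12, it was 0 in place of 3 for Cn-Ctl, 0 in place of 1 for SM-Cn-/- against Cn-Ctl and for their response difference, 1 in place of 7 for WT, 1 in place of 4 for CsA against WT and for their response difference, and 1 in place of 7 between times in the CsA experiment. edgeR gave 0 in place of 1 for SM-Cn-/-, for the genotypes at matched hours, and for their response difference, and 2 in place of 4 for CsA against WT and their response difference. DESeq2 gave 2 in place of 1 for the genotypes at matched hours, 0 in place of 1 for their response difference, 2 in place of 0 between times in the genotype experiment, and 1 in place of 0 for CsA. It also gave more calls for CsA against WT untreated (3 in place of 1) and for their response difference at 2 h (1 in place of 0) and 24 h (5 in place of 4). In WT at 2 h edgeR gave 2 and DESeq2 3 calls in place of 1, and in Cn-Ctl at 24 h edgeR gave 1 in place of 2. Quantile scaling gave 1 in place of 0 for CsA and 2 in place of 4 for CsA against WT and their response difference. Fitting only the compared groups gave 1 in place of 3 for Cn-Ctl, 0 in place of 1 for the genotypes at matched hours, and 2 in place of 4 for CsA against WT. For the genotypes at matched hours, a pseudocount of 0.1 gave 0 and one of 2 gave 2, in place of 1. Apart from the filter and the fits on fewer samples, the cause was not tested.

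Leaving out 1 library gave 1 to 4 calls for Cn-Ctl, 0 to 1 for SM-Cn-/-, 0 to 3 for the genotypes at matched hours, 0 to 2 for their response difference, 0 to 1 between times in the genotype experiment, 6 to 7 for WT, 0 to 0 for CsA, 1 to 5 for CsA against WT, 0 to 5 for their response difference, and 6 to 8 between times in the CsA experiment; a lone library left in a group was taken to vary like the other groups. Deviations of same-numbered libraries had a mean correlation of 0.0723 in the genotype experiment (34 of 71 pairs over 0.1) and -0.0247 in the CsA experiment (11 of 45). For other-numbered libraries it was -0.0364 (44 of 140) and 0.0140 (27 of 90). The main fit did not pair libraries by number, although same-numbered libraries of the genotype experiment were more alike on average. Whether they shared handling was not tested. With the replicate block, the genotypes at matched hours had 0 calls in place of 1. Under it Ccl2 passed between 2 h and 24 h in CsA (adjusted p = 0.033) and in the CsA response difference (0.041), and the calls of Il6 at 2 h in Cn-Ctl and in the CsA response difference, of Cxcl1 at 2 h in WT, and of Cxcl12 at 24 h between CsA and WT were lost (adjusted p of 0.057 to 0.063). Few reads per gene limit the genotype experiment, where Il6 and Lif had 0 reads in many libraries.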
